A study of Mus musculus with 6 samples.

Results

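The genes described here are 34 meiotic genes, those of the synaptonemal complex, the chromosome axis, meiotic cohesin, double-strand break formation, strand exchange and crossover, with a few regulators of meiotic entry and other germ cell genes. They were chosen by name and found on the array through the transcript accession of each probe. Probes were found for 33 of the 34, all but Rad21l, and these 33 entered the test among 14867 genes in all. The cells were spermatogonial stem cells of the mouse, which renew themselves and give rise to sperm, cultured from dissociated testis cells and then kept on mouse embryonic fibroblast feeders, so the RNA is of germ cells together with feeder cells. One group received 0.01 M captopril, an inhibitor of angiotensin-converting enzyme (ACE), for 24 h, and the control received sterile water, for which the labels give the same molar figure without saying what it refers to. Each group had 3 single-colour Agilent arrays from what the labels call independent experiments, and both groups carry the replicate numbers 2, 3 and 4. Strain, age and genotype of the mice are not given in the sources used here. The series as titled concerns somatic ACE and stem cell self-renewal, and the comparison asked here is whether meiotic transcripts differ with captopril. The number of arrays limits the precision, and p-values measure the spread between these samples.

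In meiotic prophase, homologous chromosomes are cut by programmed double-strand breaks, pair by strand exchange and are joined along their length by the synaptonemal complex until crossovers have formed. Each chromosome is first organised along an axis of meiotic cohesin and axis proteins, on which HORMA-domain proteins mark the stretches that have not yet synapsed. Spermatogonia divide by mitosis and do not carry out these steps, but transcripts of many meiotic genes are present in them before meiosis begins.

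No meiotic gene was called different after captopril in either fit, and the genes at an unadjusted p under 0.05 all had negative fold changes. Levels are log2 signals with the 75th percentile of the array set to 0, and fold changes are log2 differences, captopril minus water. Over all 6 arrays, 0 of 33 genes passed an adjusted p of 0.05 (limma), against a background of 0% of all genes (0 of 14867, smallest adjusted p = 0.455). Without water replicate 3, an array that stands apart from the others, 0 of 33 passed, against 0.619% of all genes (62 higher and 30 lower). At an unadjusted p under 0.05 over 6 arrays, 3 of the 33 were lower (Meioc, Ythdc2 and Brdt, 9.09%) and 0 higher, where 4.94% of all genes were lower and 3.32% higher. Over 5 arrays the same threshold held 6 lower genes (these 3 with Hormad2, Sycp2 and Tex15, 18.2%) and 0 higher ones, where 7.01% of all genes were lower and 12.1% higher. All 3 captopril arrays lay below all 3 water arrays for 8 of 33 genes (24.2%, against 11.4% of all genes), and all 3 lay above for 0 (against 10.1%). Against water replicates 2 and 4 alone, they lay below for 11 of 33 (33.3%, against 15.7%) and above for 2, Rec8 and Tex101 (6.06%, against 27.2%). The median fold change of the 33 genes was −0.20 over 6 arrays, with 27 negative values, beside −0.03 for all genes. Over 5 arrays it was −0.11, with 22 negative values, beside 0.07 for all genes.

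Water replicate 3 carried much of the spread. It correlated with the other arrays at r = 0.884 to 0.900 over genes, while the other 5 correlated with each other at 0.967 to 0.992. Of the 33 meiotic genes, 26 stood higher on it than on the mean of water replicates 2 and 4, with a median difference of 0.69 on the log2 scale. Of all genes, 69.3% did, with a median difference of 0.48. The median SD of the 33 genes was 0.43 over the 3 water arrays, 0.23 over the captopril arrays and 0.13 over water replicates 2 and 4. Values without this array carry the spread of only 2 water arrays. Water replicates 2 and 3 lay in one row of the slide, and the other 4 arrays in the next. With the slide row as a block over 6 arrays the median fold change was −0.09, with 20 negative and 13 positive values. The median of all genes was 0.11 with the block, beside −0.03 over 6 arrays without it. In the block fit 0 of the 33 genes had an unadjusted p under 0.05 (limma), in place of 3. Of all 14867 genes 345 did, in place of 1227. Water replicate 4 was the only water array in the captopril row, so the fold changes of the block fit rest on it alone. The error took in the gap between water replicates 2 and 3, so slide position and the spread of water replicate 3 cannot be told apart there.

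Signal was well above background on all 6 arrays for 31 of the 33 genes, and for 13404 of the 14867 genes tested. Spo11 and Mei4 failed this on 1 array, water replicate 3. Of the markers of undifferentiated spermatogonia, 18 of 20 were well above background on all arrays. Of those of differentiating spermatogonia 8 of 8 were, so these counts do not tell the stages apart. Markers of spermatids were detected less often, though not all were absent. Of 15 spermatid markers with a probe, 7 were not well above background on any array, among them the protamines Prm1 and Prm2, and 3 were on all 6. Of 15 Sertoli and Leydig markers, 8 were not well above background on any array, among them Amh and Cyp17a1, and 5 were on all 6, among them Sox9 and Wt1.

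**Figure D1:**
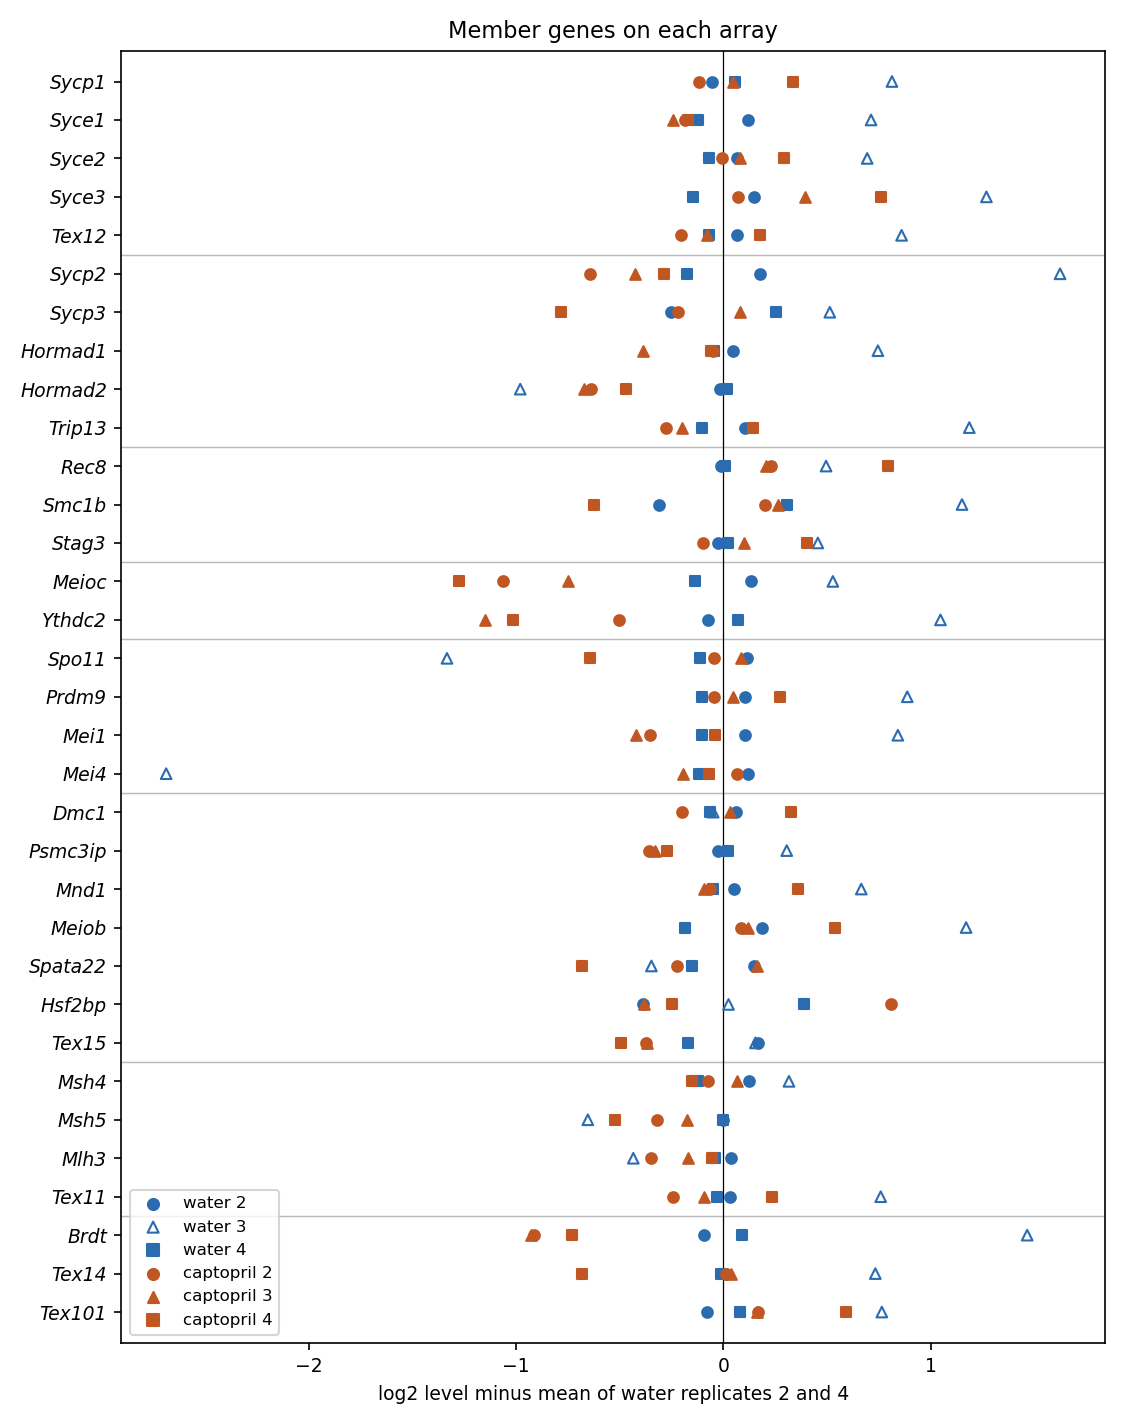
Log2 level of each of the 33 meiotic genes on each array, minus the mean of water replicates 2 and 4 (x axis), with genes in rows grouped by role and separated by grey lines. Water arrays are blue, captopril arrays orange, and the open triangle is water replicate 3, which lies to the right for 26 of the 33 genes and far to the left for Mei4 and Spo11.

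**Figure D2:**
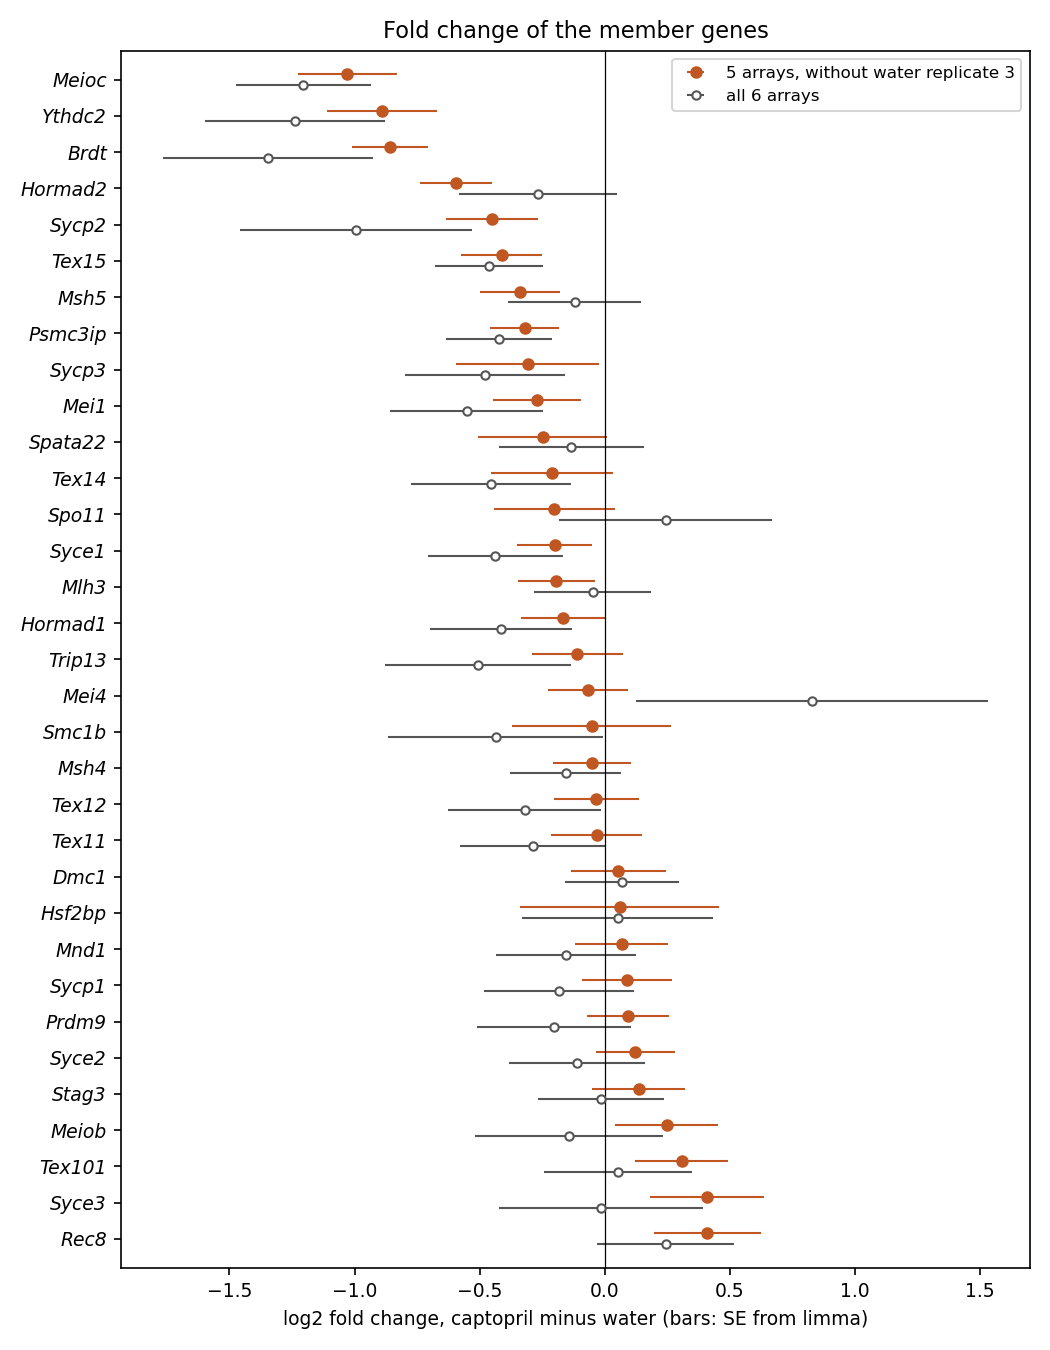
Log2 fold change, captopril minus water (x axis), of each of the 33 meiotic genes, with the SE from limma as bars. Filled points are the 5-array values and open points the 6-array values; Meioc, Ythdc2 and Brdt lie farthest to the left over 5 arrays, at −1.03, −0.89 and −0.86.

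The start regions of 29 of the 34 genes were found in the RefSeq promoter table (GRCm38.p6), as 34 windows of the 250 bases before a start. No window was found for Ythdc2, Spo11, Meiob, Tex15 and Tex11. The motifs searched on both strands were the E-box CACGTG, bound by MAX and its partners, and the E2F core TCCCGC, read as GCGGGA on the other strand. Both kinds of factor belong to a Polycomb complex that keeps germline genes silent in somatic and embryonic stem cells. The E-box is in 8 of the 34 windows (23.5%), in windows of 7 genes, against 8.04% of the windows of genes tested and 6.02% of all windows. The E2F core is in 17 windows (50%), of 14 genes, against 27.6% and 16.9%. The cyclic AMP response element TGACGTCA is in 0 of the 34 windows, against 2.38% and 1.55%. The windows of meiotic genes and those of all tested genes held a median of 14 CpG each. Shown are the windows, whole or in their part next to the start, of Meioc and Brdt, among the lowest after captopril. Those of Sycp3, Hormad1 and Tex12 are also shown, from the 4 genes that hold both motifs. The other of these genes is Syce2. Capitals mark the E-box and the E2F core on either strand. A match describes the letters only and no binding was measured. They lie at chr11:102665335-102665584 (Meioc, plus strand), chr5:107331074-107331193 (Brdt, plus), chr10:88459437-88459586 (Sycp3, plus), chr3:95559557-95559676 (Hormad1, plus) and chr9:50561269-50561418 (Tex12, minus), each ending just before the start.
Meioc: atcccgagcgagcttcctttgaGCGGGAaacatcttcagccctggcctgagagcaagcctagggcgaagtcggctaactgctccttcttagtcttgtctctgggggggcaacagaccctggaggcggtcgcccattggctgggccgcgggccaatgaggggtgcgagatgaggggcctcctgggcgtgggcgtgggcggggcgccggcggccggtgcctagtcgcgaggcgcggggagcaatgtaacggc
Brdt: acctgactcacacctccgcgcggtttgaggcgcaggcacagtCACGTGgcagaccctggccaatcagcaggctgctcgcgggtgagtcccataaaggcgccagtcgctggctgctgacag
Sycp3: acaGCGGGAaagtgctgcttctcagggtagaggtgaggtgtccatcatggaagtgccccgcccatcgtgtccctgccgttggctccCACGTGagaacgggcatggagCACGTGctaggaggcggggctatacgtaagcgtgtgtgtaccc
Hormad1: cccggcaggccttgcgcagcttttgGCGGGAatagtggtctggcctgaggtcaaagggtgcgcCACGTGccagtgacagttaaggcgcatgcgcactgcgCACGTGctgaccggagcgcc
Tex12: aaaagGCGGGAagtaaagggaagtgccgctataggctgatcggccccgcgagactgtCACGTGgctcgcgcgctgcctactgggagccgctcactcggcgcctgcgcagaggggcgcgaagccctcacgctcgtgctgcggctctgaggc

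Genes with and without these motifs had similar fold changes, a comparison that was not tested. Over 5 arrays the median fold change was −0.03 for the 7 genes with an E-box, −0.11 for the 14 with an E2F core and −0.11 for the 11 measured genes with neither. In Sycp3 one E-box begins 64 and another 43 bases before the start, and in Meioc the single match is an E2F core 228 bases before it.

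**Figure D3:**
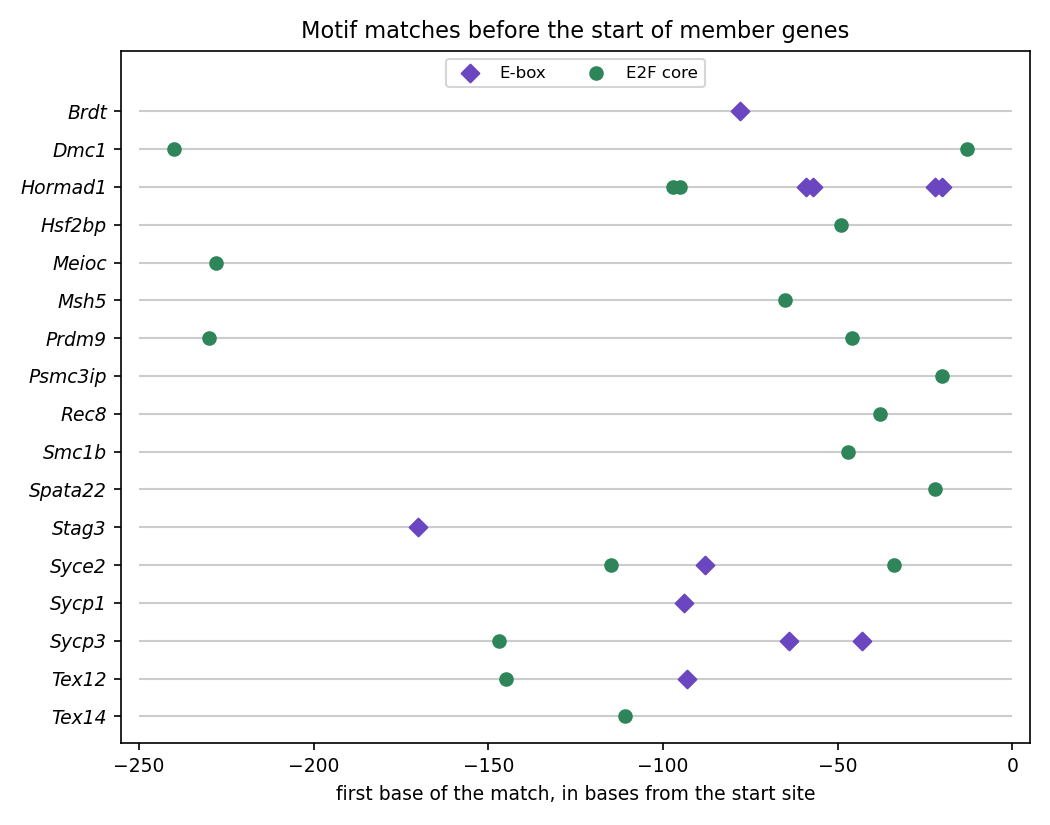
Position of E-box (purple diamonds) and E2F core (green circles) matches in the 250 bases before the start of the 17 meiotic genes that hold either, with the x axis in bases from the start site. Where a gene has more than 1 start in the table its windows share a row, so each Hormad1 match appears as a close pair; most E-boxes lie within 100 bases of the start.

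The genes of meiotic entry gave the lowest values over 5 arrays, while over 6 arrays Brdt lay below both. Meioc encodes a protein that lets germ cells leave the mitotic programme and enter meiosis, and Ythdc2 an RNA helicase that binds it and is needed for the same step. Meioc stood at 1.64, 2.03 and 1.37 on water replicates 2, 3 and 4 and at 0.44, 0.76 and 0.23 on captopril replicates 2, 3 and 4. The groups do not overlap, and the lowest water array lies 0.61 above the highest captopril array. The fold change was −1.20 (SE 0.27, limma adjusted p = 0.455) over 6 arrays. Over 5 arrays it was −1.03 (SE 0.20, adjusted p = 0.0756, 95% interval −1.50 to −0.55), a level 0.490 times that in water. A further Meioc probe, for the same transcript accession, stood at −1.83, −1.47 and −1.88 in water and −2.38, −2.34 and −2.26 after captopril. It separates the groups as well, with a smaller fold change of −0.47 (SE 0.14) over 5 arrays in a fit over all probes.

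Ythdc2 stood at −2.03, −0.91 and −1.88 on water replicates 2, 3 and 4 and at −2.46, −3.10 and −2.97 on captopril replicates 2, 3 and 4. Water replicate 3 was the highest by far, and the groups do not overlap with or without it. The fold change was −1.24 (SE 0.36, limma adjusted p = 0.519) over 6 arrays and −0.89 (SE 0.22, adjusted p = 0.106, 95% interval −1.41 to −0.37) over 5. In the slide row that held all captopril arrays and only water replicate 4, the fold change was −0.96 for Ythdc2 and −0.89 for Meioc, with no spread between water arrays. Fewer germ cells of a stage and less of the RNA per cell cannot be told apart in such bulk samples.

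Among the other germ cell genes, Brdt had a negative fold change with no overlap between the groups, and Tex14 and Tex101 overlapped over 6 arrays. Brdt is the testis member of the BET bromodomain family and reads acetylated histones from meiosis on. It stood at −0.94, 0.61 and −0.76 on water replicates 2, 3 and 4 and at −1.77, −1.78 and −1.58 on captopril replicates 2, 3 and 4. The captopril arrays lie within 0.20 of each other and below all water arrays. The fold change was −1.35 (SE 0.42, limma adjusted p = 0.552) over 6 arrays and −0.86 (SE 0.15, adjusted p = 0.0630, 95% interval −1.22 to −0.50) over 5, the smallest adjusted p among the 33 genes. A Brdt probe for another transcript accession gave −1.02, −0.21 and −1.30 in water and −1.64, −1.74 and −1.43 after captopril, with a fold change of −0.44 (SE 0.17) over 5 arrays. In the slide row with water replicate 4 alone, the Brdt fold change was −0.95. Its relative Brd2, which is expressed widely, had a fold change of 0.19 (SE 0.18) over 5 arrays, and the difference between the relatives was not tested.

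Tex14, which keeps the bridges between germ cells open, stood at 2.19, 2.91 and 2.16 in water and 2.19, 2.21 and 1.49 after captopril. Only captopril replicate 4 lies below the water arrays, and the fold change was −0.21 (SE 0.24) over 5 arrays and −0.46 (SE 0.32) over 6. Tex101, a germ cell surface protein, stood at 3.44, 4.29 and 3.60 in water and 3.69, 3.69 and 4.12 after captopril, with a fold change of 0.31 (SE 0.19) over 5 arrays and 0.05 over 6. Every Tex101 captopril array lies above water replicates 2 and 4 and below water replicate 3.

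**Figure D4:**
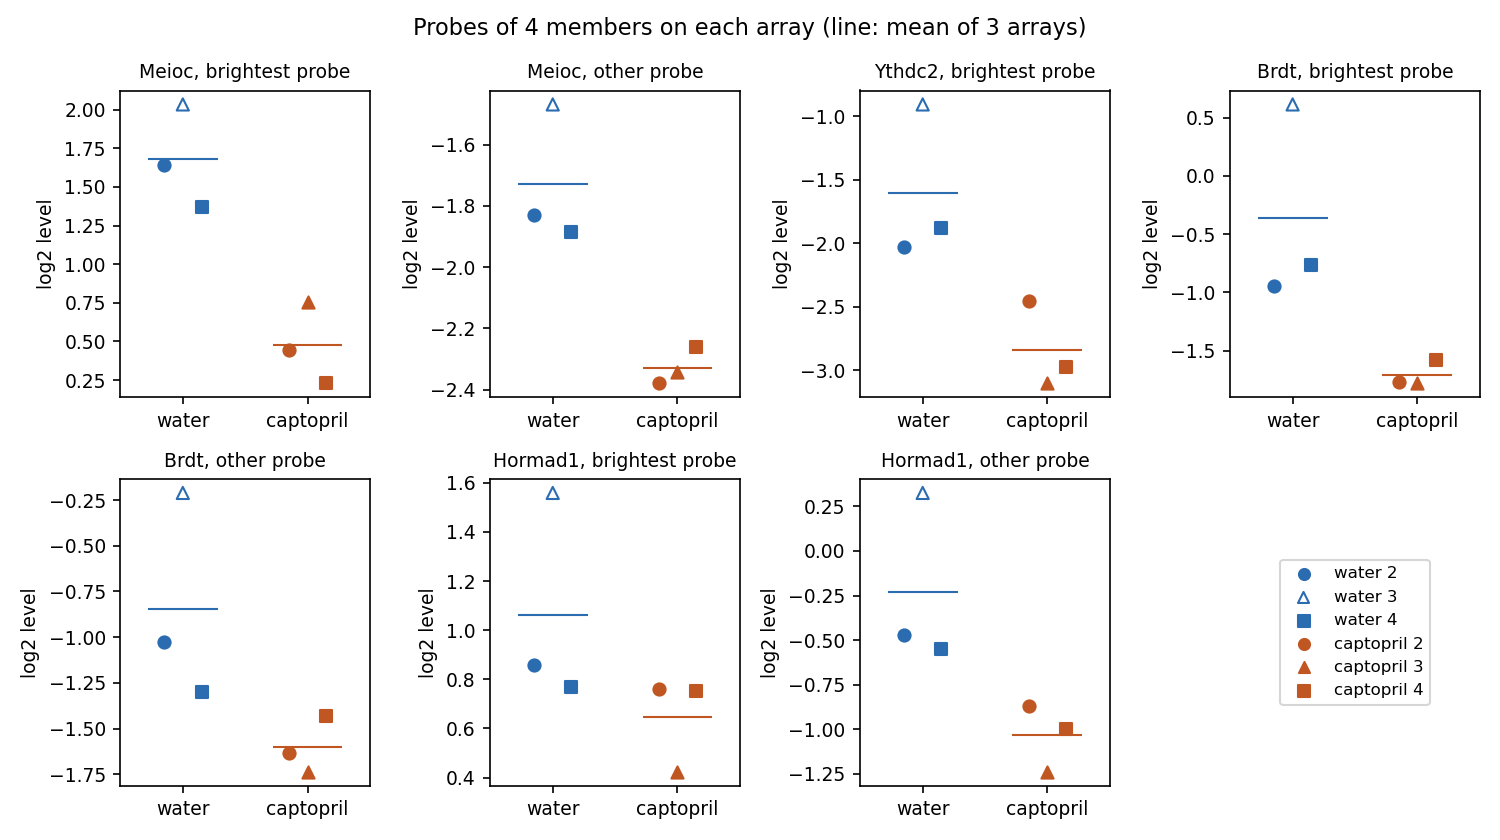
Log2 level (y axis, a range of its own in each panel) of each probe of Meioc, Brdt and Hormad1 and of the Ythdc2 probe on the 3 water (blue) and 3 captopril (orange) arrays, with the mean of 3 arrays as a line. Captopril arrays lie below all water arrays in every panel, by the smallest margin in the brightest Hormad1 probe.

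All 5 genes of the chromosome axis and the HORMA proteins had negative fold changes, with a median of −0.48 over 6 arrays and −0.31 over 5, and none was called. Each of the 5 stayed negative under all settings run. Hormad2, which marks unsynapsed axes, stood at −1.42, −2.38 and −1.39 on water replicates 2, 3 and 4 and at −2.04, −2.08 and −1.88 on captopril replicates 2, 3 and 4. Water replicate 3 was the lowest of all 6 arrays here, against its usual direction. So the fold change was −0.27 (SE 0.32, limma adjusted p = 0.772) over 6 arrays and −0.59 (SE 0.15, adjusted p = 0.105, 95% interval −0.94 to −0.25) without it. Sycp2, an axis protein of the lateral element, stood at −4.08, −2.63 and −4.43 in water and −4.90, −4.68 and −4.54 after captopril. It was dim, and its groups are 0.11 apart at the nearest arrays. Its fold change was −0.99 (SE 0.46, limma adjusted p = 0.615) over 6 arrays and −0.45 (SE 0.18, adjusted p = 0.249) over 5, so the first value rests in good part on water replicate 3.

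The other axis genes were less separated. Sycp3, the partner of Sycp2 in the lateral element, stood at 2.07, 2.84 and 2.58 in water and 2.11, 2.41 and 1.54 after captopril. These groups overlap, and captopril replicate 4 is the lowest array. Its fold change was −0.48 (SE 0.32) over 6 arrays and −0.31 (SE 0.28) over 5. Hormad1, which helps to build the axis and to license breaks, stood at 0.86, 1.56 and 0.77 in water and 0.76, 0.42 and 0.75 after captopril. Those groups nearly touch, and the fold change was −0.42 (SE 0.28) over 6 arrays and −0.17 (SE 0.17) over 5. Its further probe gave −0.47, 0.33 and −0.55 in water and between −1.24 and −0.87 after captopril, a clearer separation with a fold change of −0.52 (SE 0.17) over 5 arrays. Trip13, the ATPase that removes HORMA proteins from synapsed axes and also acts in the mitotic spindle checkpoint, had fold changes of −0.51 (SE 0.37) over 6 arrays and −0.11 (SE 0.18) over 5.

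The 5 genes of the central part of the synaptonemal complex stood apart little between groups, with a median fold change of −0.18 over 6 arrays and 0.09 over 5. The transverse filament gene Sycp1 stood at 2.04, 2.90 and 2.15 in water and 1.97, 2.14 and 2.43 after captopril, and its fold change turned from −0.18 (SE 0.30) over 6 arrays to 0.09 (SE 0.18) over 5. Syce1, a central element gene, stood at 3.07, 3.66 and 2.83 in water and 2.76, 2.71 and 2.77 after captopril. Its captopril arrays lie within 0.07 of each other and just below the lowest water array, with a fold change of −0.44 (SE 0.27) over 6 arrays and −0.20 (SE 0.15) over 5. Syce3, which starts the assembly of the central element, stood at 3.61, 4.73 and 3.31 in water and 3.53, 3.85 and 4.22 after captopril. It shows the widest spread of the 5 in both groups, and its fold change was 0.41 (SE 0.23) over 5 arrays and −0.01 over 6. Syce2 and Tex12, which form a complex within the central element, had fold changes of 0.12 (SE 0.16) and −0.03 (SE 0.17) over 5 arrays. Over 6 arrays these were −0.11 (SE 0.27) and −0.32 (SE 0.30), so that of Syce2 turned sign with water replicate 3.

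The groups overlapped over 6 arrays for all 3 measured genes of meiotic cohesin. Rec8, the meiotic kleisin subunit, stood at 1.34, 1.84 and 1.36 in water and 1.58, 1.55 and 2.14 after captopril. All captopril arrays lie above water replicates 2 and 4, but water replicate 3 lies among them. Its fold change was 0.41 (SE 0.21, limma adjusted p = 0.337) over 5 arrays and 0.24 over 6, a positive value among mostly negative ones. Smc1b, the meiotic SMC subunit, stood at 2.14, 3.60 and 2.76 in water and 2.65, 2.72 and 1.83 after captopril, a wide spread within each group. Its fold change was −0.44 (SE 0.43) over 6 arrays and −0.05 (SE 0.32) over 5. Stag3, the meiotic STAG subunit, had fold changes of −0.02 (SE 0.25) over 6 arrays and 0.14 (SE 0.18) over 5. The mitotic counterparts Rad21, Smc1a and Smc3 had fold changes over 5 arrays of 0.01 (SE 0.17), −0.06 (SE 0.20) and 0.13 (SE 0.14). Those of Stag1 and Stag2 were −0.49 (SE 0.19) and −0.32 (SE 0.17). Over 6 arrays all 5 were negative, from −0.85 for Stag1 to −0.14 for Smc3.

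Genes of double-strand break formation were dim or scattered. Spo11, the enzyme that makes the breaks, stood at −3.57, −5.02 and −3.80 in water and −3.73, −3.60 and −4.33 after captopril. On water replicate 3 it was not well above background, and the sign of its fold change turned with that array, from 0.24 (SE 0.42) over 6 arrays to −0.20 (SE 0.24) over 5. Mei4, a partner of the break machinery, stood at −3.39, −6.19 and −3.62 in water and −3.44, −3.70 and −3.58 after captopril. Apart from water replicate 3, where neither Mei4 probe was well above background, its arrays lie within 0.31 of each other. Its fold change was accordingly 0.83 (SE 0.70) over 6 arrays and −0.07 (SE 0.16) over 5. Prdm9, the histone methyltransferase that places the breaks, had fold changes of −0.20 (SE 0.31) over 6 arrays and 0.09 (SE 0.17) over 5, and a further probe of it gave −0.15 (SE 0.15) over 5. Mei1, needed for the breaks, stood at 1.02, 1.75 and 0.81 in water and 0.56, 0.49 and 0.87 after captopril, with a fold change of −0.55 (SE 0.30) over 6 arrays and −0.27 (SE 0.18) over 5.

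Among the 7 strand exchange genes, Psmc3ip and Tex15 separated the groups by the probe that stands for the gene. Psmc3ip encodes Hop2, which with Mnd1 helps the recombinases to invade the homologue. It stood at 3.45, 3.78 and 3.50 in water and 3.12, 3.15 and 3.20 after captopril. The captopril arrays lie close together and all below the water arrays, with a fold change of −0.42 (SE 0.21) over 6 arrays and −0.32 (SE 0.14, limma adjusted p = 0.267) over 5. Its partner Mnd1 had fold changes of −0.15 (SE 0.28) over 6 arrays and 0.07 (SE 0.19) over 5, with 0.18 (SE 0.19) over 5 for a further probe, and the difference between the partners was not tested. Tex15, needed for loading of recombinases and for silencing of transposons in male germ cells, stood at 2.46, 2.45 and 2.12 in water and 1.92, 1.92 and 1.80 after captopril. Water replicate 3 was close to replicate 2 here, and the fold change was −0.46 (SE 0.21) over 6 arrays and −0.41 (SE 0.16, limma adjusted p = 0.239) over 5. A further Tex15 probe was not well above background on any array.

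Dmc1, the meiotic recombinase, stood at 1.11, 1.00 and 0.99 in water and 0.85, 1.08 and 1.38 after captopril. By this probe, the brightest, its groups overlap, and its fold change was 0.07 (SE 0.23) over 6 arrays and 0.05 (SE 0.19, 95% interval −0.40 to 0.50) over 5. The other Dmc1 probes, for the same accession, did not give the same picture. One stood at −0.04, −0.38 and −0.30 in water and −0.61, −0.60 and −0.45 after captopril, with no overlap and a fold change of −0.38 (SE 0.16, limma adjusted p = 0.253) over 5 arrays. The other gave 0.09 (SE 0.18) over 5 arrays and was low, at −1.75, on water replicate 3. Meiob and Spata22, which bind single-stranded DNA together, had fold changes of 0.25 (SE 0.21) and −0.25 (SE 0.26) over 5 arrays, and −0.14 (SE 0.38) and −0.13 (SE 0.29) over 6. Hsf2bp, which binds Brca2 and helps to load the recombinases, had one of 0.06 (SE 0.40) over 5 arrays, the widest error among the 33 genes, and 0.05 (SE 0.38) over 6.

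The 4 crossover genes all had negative fold changes, with a median of −0.14 over 6 arrays and −0.12 over 5, and none was called. The signs of Msh4, Mlh3 and Tex11 turned under at least 1 other setting, as that of Msh4 did to 0.07 with normexp background correction over 5 arrays. Msh5, which forms a clamp with Msh4 on recombination intermediates, stood at 0.47, −0.18 and 0.47 in water and 0.15, 0.30 and −0.05 after captopril. Water replicate 3 was again the lowest array, and the fold change was −0.12 (SE 0.27) with it and −0.34 (SE 0.16, limma adjusted p = 0.300) without it. Msh4 had a fold change of −0.16 (SE 0.22) over 6 arrays and −0.05 (SE 0.16) over 5, with 0.19 (SE 0.15) over 5 for a further probe that was not well above background on water replicate 3. Mlh3, which helps to resolve crossovers, had values of −0.05 (SE 0.23) over 6 arrays and −0.19 (SE 0.15) over 5. Tex11, an X-linked gene that supports crossovers, had values of −0.29 (SE 0.29) and −0.03 (SE 0.18), and a further probe of it −0.41 (SE 0.21) over 5 arrays.

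**Figure D5:**
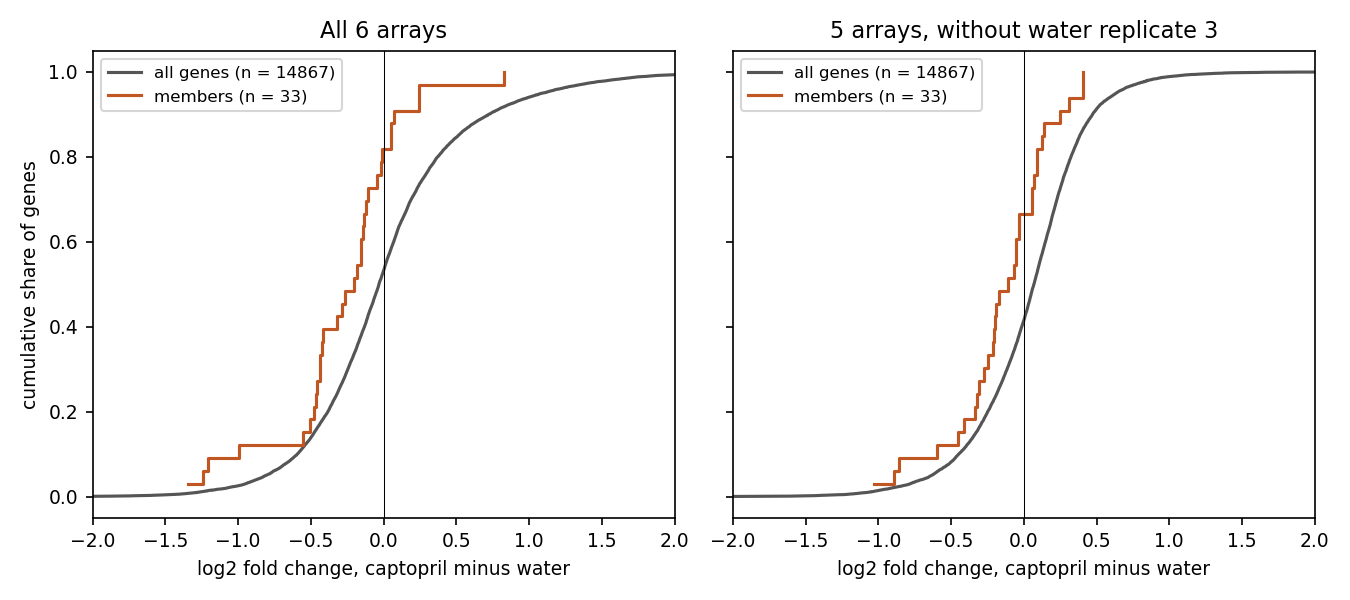
Cumulative share of genes (y axis) by log2 fold change, captopril minus water (x axis, shown from −2 to 2), for the 33 meiotic genes (orange) and all 14867 genes tested (grey), over 6 arrays (left) and 5 arrays (right). The orange line lies to the left of the grey one over most of its course, with medians of −0.20 against −0.03 on the left and −0.11 against 0.07 on the right.

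A wider list of 31 meiosis genes beyond these, of which 24 were measured, had 0 genes called in either fit. At an unadjusted p under 0.05 over 5 arrays, 4 of 24 were lower and 0 higher, where 7.01% of all genes were lower and 12.1% higher, and their median fold change was 0.00. Over 6 arrays 3 were lower and 0 higher, where 4.94% and 3.32% of all genes were, and the median was −0.09 with 15 negative values. Rad51ap2 stood at −2.92, −1.90 and −3.24 in water and −4.31, −4.42 and −4.08 after captopril. Its groups are far apart, and its fold change was −1.19 (SE 0.18, limma adjusted p = 0.0511) over 5 arrays and −1.58 (SE 0.37, adjusted p = 0.455) over 6. Iho1, which helps to place the break machinery on the axis, had a fold change of −0.50 (SE 0.18) over 5 arrays and −0.82 (SE 0.33) over 6. The crossover regulator Cntd1 was well above background on only 2 arrays of each group, near the limit of detection, so no fold is read from it; it stood at −4.27, −5.19 and −3.76 in water and −4.88, −4.92 and −5.41 after captopril, and the groups overlap.

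The regulators of meiotic genes differed in how they stood. Stra8, which drives meiotic entry in response to retinoic acid, stood at 0.05, 0.38 and −0.08 in water and 0.15, 0.02 and −1.06 after captopril. It was low on captopril replicate 4 alone, as were Tex14, Sycp3 and Smc1b, and its fold change was −0.28 (SE 0.36) over 5 arrays and −0.41 (SE 0.36) over 6. Mybl1, a master regulator of pachytene genes in males, was well above background on all 3 water arrays and on 0 of 3 captopril arrays. For a rough fold, the captopril side was set to each array's lowest signal well above background, or to the probe's own signal where higher. Water was then 1.64-fold higher over 6 arrays and 1.43-fold over 5 (limma adjusted p = 0.548 and 0.190 on the measured values). This is no firm minimum. On captopril replicate 3 Mybl1 read −5.15 without being well above background, while the lowest signal that was stood at −5.29.

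The general counterparts of the meiotic genes, cohesin, recombination, repair and BET genes that act in mitotic cells, served as a comparison. Of 33 listed, 32 were measured and 0 called. All 3 captopril arrays lay below all 3 water arrays for 6 of the 32 and above for 0, against 11.4% and 10.1% of all genes. Against water replicates 2 and 4 alone they lay below for 8 (25%, against 15.7%) and above for 5 (15.6%, against 27.2%). At an unadjusted p under 0.05 over 5 arrays, 3 were lower (Brca1, Stag1 and Exo1) and 2 higher, among them Rad51d. Of all genes 7.01% were lower and 12.1% higher. Over 6 arrays the fold changes were 0.24 (SE 0.77) for Brca1, −0.85 (SE 0.35) for Stag1, −0.62 (SE 0.28) for Exo1 and 0.18 (SE 0.35) for Rad51d. Brca1 was well above background on only 2 water arrays and read −5.21 on water replicate 3. The median of the 32 genes over 5 arrays was −0.03, beside −0.11 for the meiotic genes and 0.07 for all genes. Over 6 arrays it was −0.23, beside −0.20 and −0.03. Neither median was tested against the other.

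Of the markers of feeder cells and spermatogonia, 0 were called in either fit. All 18 fibroblast feeder markers were well above background on all arrays, and at an unadjusted p under 0.05 over 5 arrays 6 were lower and 1 higher, where 7.01% of all genes were lower and 12.1% higher. The 4 with the smallest p were Col3a1 (−0.66, SE 0.15), Lum (−0.61, SE 0.16), Fbn1 (−1.01, SE 0.30) and Pdgfrb (−0.72, SE 0.22). The list as a whole was split over 5 arrays, with 10 negative and 8 positive values and a median of −0.12. Over 6 arrays it held 13 negative and 5 positive values, with a median of −0.44, beside −0.03 for all genes. Its captopril arrays lay below water replicates 2 and 4 for 7 markers (38.9%, against 15.7% of all genes). They lay above them for 6 (33.3%, against 27.2%), among these Loxl1, Thy1 and Pdgfra. The summed signal of these 18 genes, in units of each array's 75th percentile, was 204.0 to 379.0 in water and 197.8 to 237.6 after captopril, and the ranges overlap with or without water replicate 3. That of the 33 meiotic genes was 129.6 to 219.4 in water, or 129.6 to 133.5 without water replicate 3, and 122.4 to 146.0 after captopril. The median fold change over 5 arrays was −0.01 for the 20 markers of undifferentiated spermatogonia and −0.26 for 8 markers of differentiating ones. Over 6 arrays these medians were −0.09 and −0.04, beside −0.03 for all genes. Of the undifferentiated markers, 10 had negative and 10 positive values over 5 arrays. At an unadjusted p under 0.05 in that fit 1 was lower and 3 were higher, where 7.01% and 12.1% of all genes were. The higher ones were Bcl6b (0.64, SE 0.18), Lin28a (0.50, SE 0.17) and Sall4 (0.51, SE 0.21). Over 6 arrays these 3 stood at 0.36 (SE 0.31), 0.32 (SE 0.26) and 0.89 (SE 0.37). The lower marker was Taf4b, which stood at −4.41, −3.91 and −4.34 in water and −4.84, −5.19 and −5.43 after captopril. It was well above background on only 1 captopril array. The part of these cell markers in the values of Meioc, Ythdc2, Brdt and the other meiotic genes was not tested.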

How the data were processed

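RNA of 3 captopril and 3 water cultures was amplified, labelled with Cy3 and hybridised, per the labels' protocols. All arrays lie on 1 slide. The deposited spot intensity values come from Agilent's Feature Extraction program (11.5.1.1 in the file headers, 10.7 in the submitters' processing notes). The program had subtracted background and set the flag for signal well above background, per the file headers. The authors' deposited log2 table followed log2 of these signals (r = 1 on every array, column medians −4.24 to −3.62), its centring is not stated by labels or headers, and its values served as one alternative.

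Here log2 of the processed signal minus each array's 75th percentile was taken, without control and outlier spots. Spots well above background made up 52.2% to 60.5% of an array. Probes were named by transcript accession through the RefSeq table of GRCm38.p6 (26762 of 55681 probes with 1 symbol, 28919 unnamed). The array design used mm9, so no probe coordinates are given. For each gene the brightest probe was used, given a value on all 6 arrays and a signal well above background on 3 or more. The test was limma's (version 3.58.1, R 4.3.3; lmFit, eBayes), two-sided, with Benjamini-Hochberg adjustment over 14867 genes. The code was tested on simulated data. Promoters were read with pandas 2.3.3 in Python 3.11.15, and plots drawn with matplotlib 3.10.9.

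Alternatives were normexp background correction (offset 50, on median signals), quantile normalization, scaling by the array median, the authors' table, 2 other filters, the mean of a gene's probes, a variance trend, replicate and slide row blocks, slide row 2 alone, and each array left out. The genes and lists, and the fit of 5 arrays, were chosen with earlier results of these data known. Genes outside the 34 are named only as general counterparts or regulators, or as up to 4 of a list with the smallest p over 5 arrays. Some of these genes are not reported here. Other named markers, such as those cited for detection, were picked after their values were seen.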

Additional observations from a re-analysis of the deposited data

How the results depend on the processing

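No meiotic gene was called under any of the 34 settings run. The smallest adjusted p (limma) was 0.351 in fits that hold all 6 arrays. Over 5 arrays it was 0.0514, for Meioc with the replicate block, where the fit gave all genes the same spread. Among the other settings over 5 arrays the smallest was 0.05495, with scaling by the array median. Meioc, Ythdc2 and Brdt were negative under every setting (−1.17 to −0.75, −1.08 to −0.74 and −0.99 to −0.65 over 5 arrays). Of 1054 values of meiotic genes under alternatives, 92 had another sign. The median of the 33 genes over 6 arrays was −0.50 when scaled by the array median, which moves the median of all genes to −0.33. With an array left out, the median of the 33 was −0.40 to −0.11, beside −0.13 to 0.07 for all genes. With the slide row as a block it was −0.09, with 13 of the 33 positive, beside 0.11 for all genes. In that block fit the unadjusted p (limma) was 0.0576 for Meioc, 0.116 for Ythdc2 and 0.161 for Brdt. Its fold changes rest on water replicate 4 alone, and its error takes in the gap between water replicates 2 and 3. Over 5 arrays the median of the 33 was −0.11 in the main fit, beside 0.07 for all genes. Scaling by the array median gave −0.24, beside −0.0625 for all genes. Normexp background correction gave −0.0683, beside 0.0738, and quantile normalization −0.19, beside 0.0013. Averaging the probes of each gene gave −0.19, beside 0.0532. Leaving a further array out gave −0.18 to −0.0796, beside 0.0336 to 0.1079 for all genes. The count of all genes called ranged from 0 to 92 over 6 arrays with an array left out, where the 92 came without water replicate 3. From 92 over 5 arrays it went to 0 with quantile normalization, 39 with the array median, 0 without a filter on dim probes, 145 with probes well above background on every array, and 0 with the slide row as a block. It was 0 to 87 with a further array left out, and 0 without water replicate 2, water replicate 4, captopril replicate 3 or captopril replicate 4. The cause was not tested. Whether the replicate numbers pair the samples is not settled. The deviations of same-numbered arrays from their group means correlated at −0.02, 0.02 and −0.19. Water replicate 3 weighs on the deviations of all water arrays, so these values cannot decide it. With the replicate block, 0 meiotic genes were called in either fit, and 0 genes in all over 6 arrays and 215 over 5, where the fit gave all genes the same spread. Spo11, Mei4, Brca1, Cntd1, Taf4b and Mybl1 are limited by signal near the background.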

Other observations

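The arrays on which single meiotic genes reached their lowest or highest level were counted after the values were seen. The counts are over the 5 arrays without water replicate 3, and they were spread only in part as for all genes. Captopril replicate 4 was the lowest array for 9 of 33 meiotic genes (27.3%) and the highest for 13 (39.4%). These shares are near the 22.4% and 46.3% of all genes. The 9 were Sycp3, Smc1b, Meioc, Spo11, Spata22, Tex15, Msh4, Msh5 and Tex14, and the 13 included Sycp1, Syce2, Syce3, Tex12, Rec8, Stag3, Dmc1 and Mnd1. Captopril replicates 2 and 3 were the lowest for 9 and 8 (27.3% and 24.2%, against 16.4% and 12.2% of all genes). Water replicate 4, the lowest array for 34.6% of all genes, was the lowest for 4 meiotic genes (12.1%), and water replicate 2 was the highest for 11 (33.3%, against 17.3%). These counts describe 5 libraries and no test was made of them.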
